A study of Mus musculus with 6 samples.

Results

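ATP-binding cassette (ABC) transporters are membrane proteins, and a few soluble relatives, that share a nucleotide-binding domain. The family was taken as the protein-coding genes of the deposited table whose symbol is Abc followed by a subfamily letter from a to g and a number. Abca1, Abcg5 and Abcg8 were left out, which gave 38 of the 23390 genes in the table. Subfamily A had 9 members, B 9, C 10, D 3, E 1, F 3 and G 3. Their mRNA was compared between small intestinal epithelial cells of C57BL/6 mice in which Maf, a basic leucine zipper transcription factor, was floxed (Maf.flox, 3 libraries) and cells of mice that also carried Vil.Cre (Vil.Cre Maf.flox, 3 libraries). Vil.Cre is Cre recombinase under the villin promoter, which is active in intestinal epithelium. Both groups carried the floxed allele and no group carried Cre alone, so loss of Maf and the presence of Cre cannot be told apart. Cells were sorted as viable, CD45- and EpCAM+, so all epithelial types of the small intestine were pooled in each library. The labels give no age or sex, and do not say whether replicates were separate mice, so each p-value reflects only how far these libraries spread. In bulk RNA, fewer cells of a type and less RNA per cell cannot be told apart.

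Most ABC proteins use ATP to move lipids, bile pigments, drugs, peptides or metal complexes out of the cytosol. In the enterocyte, the absorptive cell of the gut, P-glycoprotein (Abcb1a in the mouse gut), Mrp2 (Abcc2) and Bcrp (Abcg2) sit in the brush border and return drugs and conjugates to the lumen, while Mrp3 (Abcc3) works on the basolateral side. Subfamily D serves peroxisomes and lysosomes, several B members serve mitochondria, and subfamilies E and F carry no membrane part and act at the ribosome.

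The libraries held 17464355 to 24802525 gene counts. Maf was present at 395, 292 and 185 CPM (normalised counts scaled to a common library size) in Maf.flox replicates 1, 2 and 3 and at 0.812, 0.0587 and 0.0428 CPM in Vil.Cre Maf.flox replicates 1, 2 and 3, a log2 fold change of -9.89 (SE 0.704) with an adjusted p of 0.0133. All fold changes are Vil.Cre Maf.flox against Maf.flox, from edgeR's quasi-likelihood test over the 13740 genes that passed a filter on low counts. P-values were adjusted by the Benjamini-Hochberg method over those genes, and a gene was called at an adjusted p under 0.05. Over all genes 75 were called, 49 lower and 26 higher. As a background for each list below, 16.4% of all genes had an unadjusted p under 0.05 and 51.6% lay below 0. The epithelial genes Epcam and Vil1 measured 1922 to 2305 CPM and 1741 to 3093 CPM over the 6 libraries. Enterocyte marker genes summed to 11838 to 23396 CPM in Maf.flox and 9129.6 to 14011 CPM in Vil.Cre Maf.flox, with 9 of 10 below 0 on the log2 scale (median -0.84), 6 at an unadjusted p under 0.05 and none called. In Maf.flox replicate 3 that sum was 11838 CPM, the lowest of the Maf.flox libraries. Tuft cell markers, 9 of 10 tested, were all below 0 (median -1.87, 9 at an unadjusted p under 0.05, none called), with sums of 24.3 to 120 CPM against 17.1 to 21.8 CPM. Paneth markers summed to 5827 to 37173 CPM against 7933 to 11542 CPM, 7 of 8 below 0 (median -1.23). Stem cell markers summed to 2432 to 3408 CPM against 2155 to 2978 CPM, 8 of 8 below 0 (median -0.24). Goblet markers summed to 15306 to 34068 CPM against 15215 to 28934 CPM, 5 of 8 below 0 (median -0.23). Enteroendocrine markers summed to 341 to 969.9 CPM against 306 to 558 CPM, 7 of 10 below 0 (median -0.54). Of the genes on these 4 lists none was called, and 0 Paneth, 1 stem cell, 1 goblet and 0 enteroendocrine markers had an unadjusted p under 0.05. Markers of stroma, endothelium and muscle summed to at most 0.998 CPM in any library, and none passed the filter. Leukocyte markers summed to 26.6 to 36.7 CPM against 32.9 to 44.7 CPM, with Ptprc, which encodes CD45, at 2.29 CPM or less. Of their 6 tested genes 3 lay below 0, and Itgam, an integrin gene of myeloid cells, was at 0.89 (adjusted p 0.0795). The part of these shifts in the results on the family was not tested.

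Of the 38 members, 29 passed the filter and 9 did not. No member was called by edgeR's quasi-likelihood test, where 0.546% of all genes were called. At an unadjusted p under 0.05 there were 9 of the 29 members, or 31.0%, against 16.4% of all genes. Of these 9, 6 were lower in Vil.Cre Maf.flox (9.25% of all genes were) and 3 were higher (7.11% of all genes were). The log2 fold change was below 0 for 18 of 29 members, or 62.1%, against 51.6% of all genes. The median was -0.10 for the members and -0.01 for all genes tested. The 3 Vil.Cre Maf.flox libraries lay below every Maf.flox library for 5 members, or 17.2%, against 10.5% of all genes, and above every Maf.flox library for another 5, against 10.1% of all genes. The filter itself bears on Abca12, Abcb6 and Abca5, whose counts reached its minimum of 10 in all libraries of the higher group but not in all those of the lower group, so these counts of members are a description. Among the members with the smallest p were Abcc2, Abca12, Abcc6, Abcb1a, Abcc5 and Abcc1: pumps for conjugates, drugs and organic anions, and an epidermal lipid transporter.

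**Figure D1:**
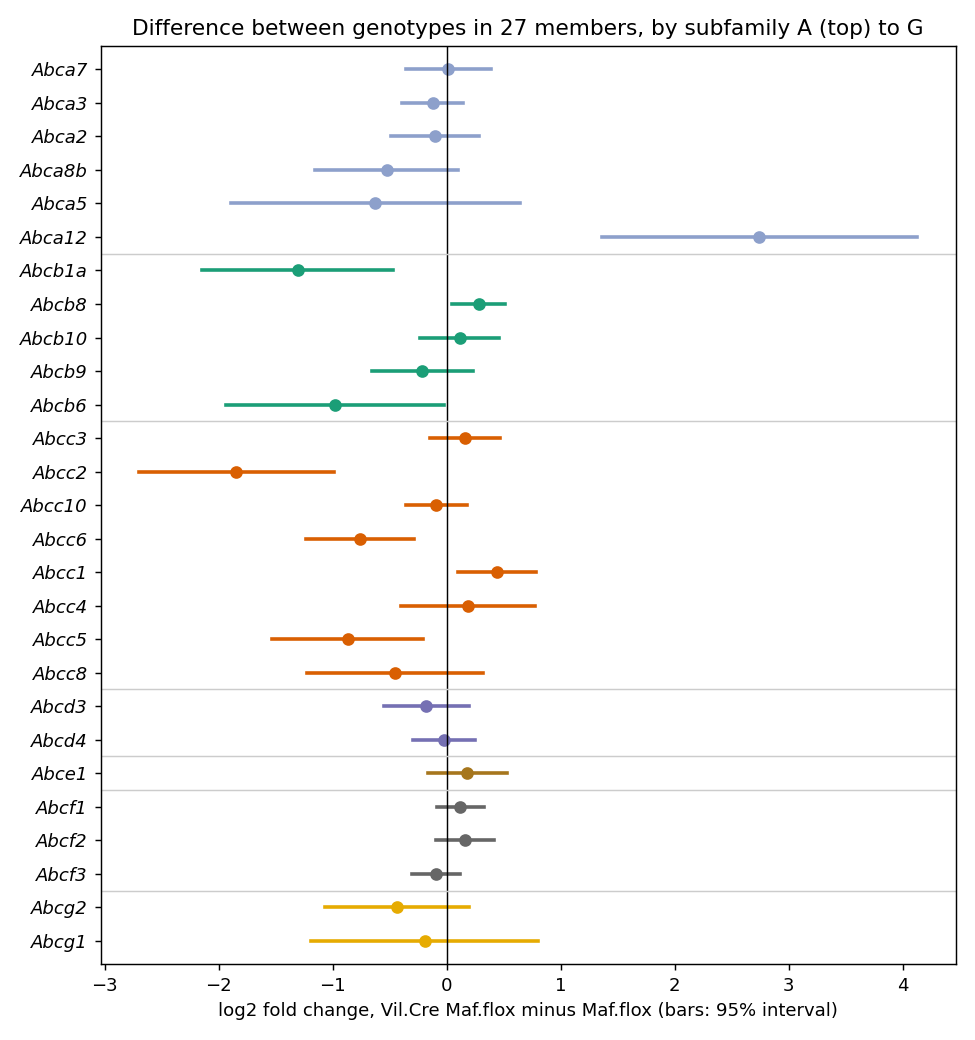
Log2 fold change (Vil.Cre Maf.flox minus Maf.flox, x axis) of 27 of the 29 tested members, ordered by subfamily, with 95% intervals from the edgeR fit. Abcc2 lies at -1.84, Abcb1a at -1.31 and Abca12 at 2.74, and their intervals do not reach 0. Those of Abcb6, Abcb8, Abcc1, Abcc5 and Abcc6 do not reach 0 either. The intervals are not adjusted for the number of genes tested, and no member was called.

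The count of members called depended on 1 library and on the test. Without Maf.flox replicate 3, edgeR called 4 members, where it called 5% of all genes. Among them were Abcc2 (log2 fold change -2.12, adjusted p 0.00576), Abcb1a (-1.56, 0.0344) and Abcc5 (-1.13, 0.0251). Leaving out any of the other 5 libraries gave 0 members, where 8 to 31 of the 14017 to 14090 genes tested were called. DESeq2 on all 6 libraries also called 4 members, where it called 5.53% of all genes: Abcc2 (adjusted p 1.27e-07), Abcb1a (0.000778), Abca12 (0.00124) and Abcc6 (0.0219). Without the filter on low counts edgeR called 1 member, Abca12 (adjusted p 0.0142), where 1.58% of all genes were called. With the replicate number as a block, which the libraries did not bear out as a pairing, it called 3 members, Abca12 and Abcc6 among them, where 3.2% of all genes were called. Limma-voom called 0 members, where 34 of 13740 genes were called. Over all alternatives the adjusted p ran from 0.000778 to 0.451 for Abcb1a, from 0.00124 to 0.289 for Abca12 and from 0.0219 to 0.446 for Abcc6. It ran from 0.0251 to 0.586 for Abcc5.

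**Figure D2:**
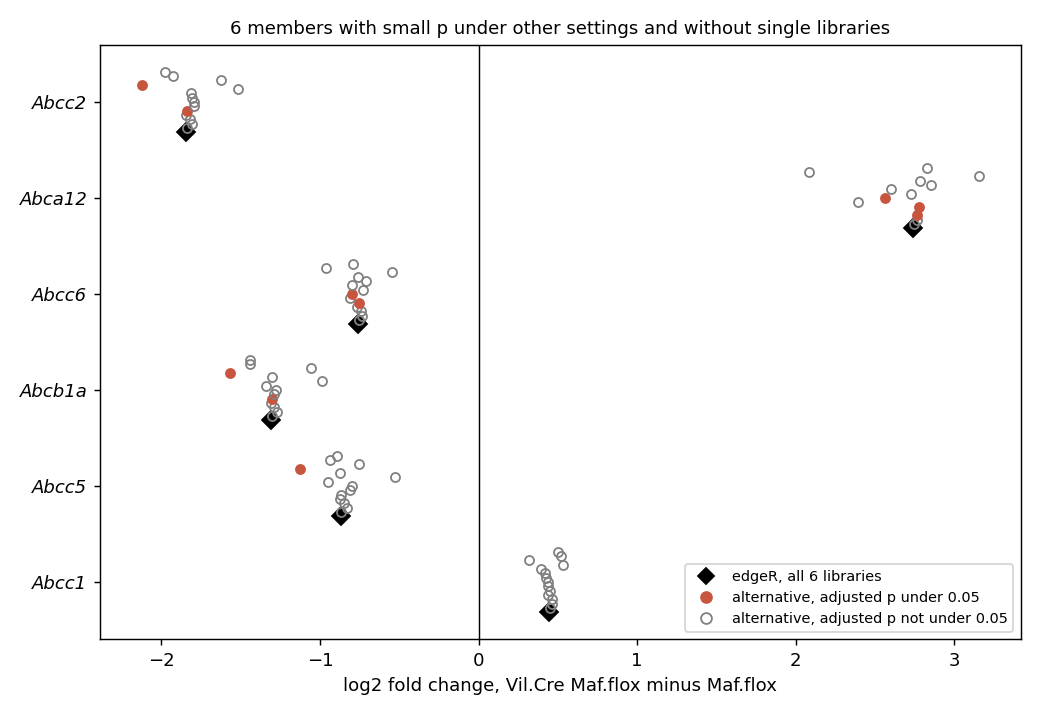
Log2 fold change (x axis) of 6 members with small p under the edgeR fit of all libraries (diamonds) and each alternative (circles, filled where the adjusted p was under 0.05). Each member kept its sign throughout, and 10 of the circles are filled.

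The stretches before the start of 3 members are printed: Abcc2 and Abca12, which had the smallest p in the family, and Abcb1a, which had the highest mean FPKM. They were taken from RefSeq on GRCm38.p6, where 28 of the 38 members had an entry, and are given 5′ to 3′ on the strand of the gene, with motif matches in capitals. The Abcc2 stretch is chr19:43782058-43782191, plus strand, shortened to 134 bases so that it ends before the deposited gene start. The Abca12 stretch is chr1:71414911-71415160, minus strand. The Abcb1a stretch is chr5:8566841-8567090, plus strand, at a RefSeq start that lies 92986 bases from the start of the deposited gene.
Abcc2: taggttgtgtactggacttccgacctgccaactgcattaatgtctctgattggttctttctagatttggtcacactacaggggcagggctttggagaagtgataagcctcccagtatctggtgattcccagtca
Abca12: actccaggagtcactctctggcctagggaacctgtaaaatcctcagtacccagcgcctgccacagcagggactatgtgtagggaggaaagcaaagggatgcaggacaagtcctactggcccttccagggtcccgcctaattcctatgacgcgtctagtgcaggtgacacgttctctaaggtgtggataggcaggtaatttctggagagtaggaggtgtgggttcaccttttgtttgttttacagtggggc
Abcb1a: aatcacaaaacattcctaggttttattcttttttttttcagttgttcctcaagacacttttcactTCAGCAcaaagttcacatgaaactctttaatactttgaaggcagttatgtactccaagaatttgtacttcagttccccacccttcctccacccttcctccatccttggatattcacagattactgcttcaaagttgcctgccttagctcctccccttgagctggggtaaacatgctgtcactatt
Letters were searched on both strands in the 250 bases before each RefSeq start. TGCTGA, the core of the element that Maf proteins bind, was present in 6 of the 34 member stretches and in 16.1% of all 32851 stretches. The capitals in Abcb1a mark its only match, read as TCAGCA on the printed strand. TGANTCA, the AP-1 element, was in 0 of 34 member stretches against 6.75% of all. TGACNNNGC, the core of the antioxidant response element, was in 4 of 34 against 10.2% of all. It can overlap TGCTGA by its first 3 letters. In Abcc2 its match, TGACATAGC, lay 98 to 90 bases before the RefSeq start, inside the deposited gene and so past the printed stretch, and Abca12 held none of the 3 motifs. A match is a description of the letters and not a bound site.

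Levels per gene length are given as the deposited FPKM. The family was led by 57.4 FPKM for Abcb1a (mean of 6 libraries), 44.98 for Abcd3 and 35.4 for Abcf1. Abcc3 at 21.0 FPKM and Abcg2 at 20.9 FPKM came next, within their spread of each other. Abcb1a ranked first among members in all 3 Maf.flox libraries, and in Vil.Cre Maf.flox it ranked 3, 2 and 2, below Abcd3 in each. In Maf.flox, Abcb1a was at 81.6 ± 32.3 FPKM (SD, n = 3) and Abcd3 at 47.6 ± 9.45 FPKM, and their libraries overlapped. In Vil.Cre Maf.flox, Abcb1a was at 33.1 ± 10.7 FPKM and Abcd3 at 42.3 ± 5.87 FPKM, within their spread. Abcf1 was at 36.9 ± 0.842 FPKM in Vil.Cre Maf.flox, below Abcd3 in each of the 3 libraries, and their libraries did not overlap.

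**Figure D3:**
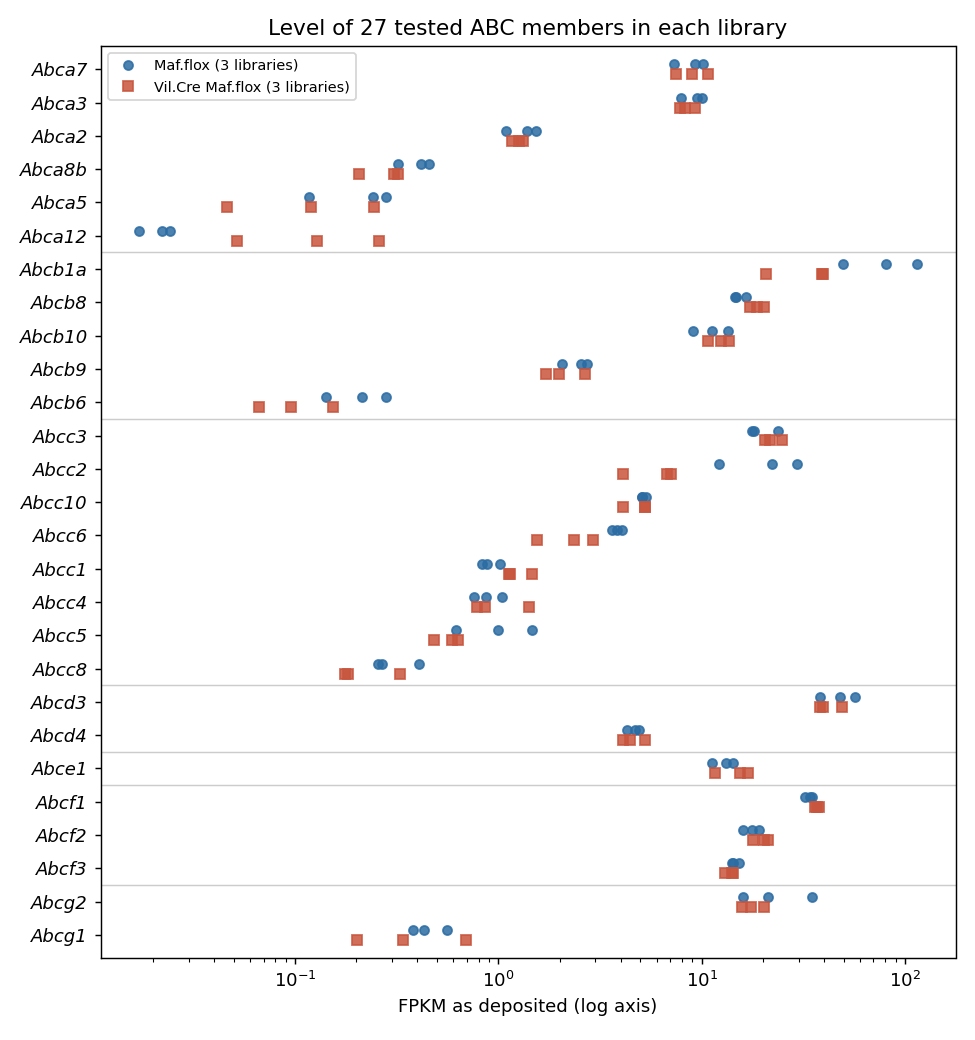
Deposited FPKM (x axis, log scale) of 27 of the 29 tested members in the 3 Maf.flox libraries (circles) and the 3 Vil.Cre Maf.flox libraries (squares), by subfamily from A (top) to G. Abcb1a reaches 114 FPKM in Maf.flox replicate 1, and the squares of Abcc2 lie left of all its circles.

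Summed over all 38 members, FPKM came to 429.5, 373 and 304 in Maf.flox replicates 1, 2 and 3 and to 281, 320.4 and 301 in Vil.Cre Maf.flox. These groups overlapped, since Maf.flox replicate 3 lay below Vil.Cre Maf.flox replicate 2. Abcb1a alone made up 26.6%, 21.7% and 16.3% of the family's sum in Maf.flox and 7.38%, 12.4% and 13.0% in Vil.Cre Maf.flox. Without Abcb1a the sums were 315, 292 and 254 against 261, 281 and 262 FPKM, and the groups overlapped as well.

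**Figure D4:**
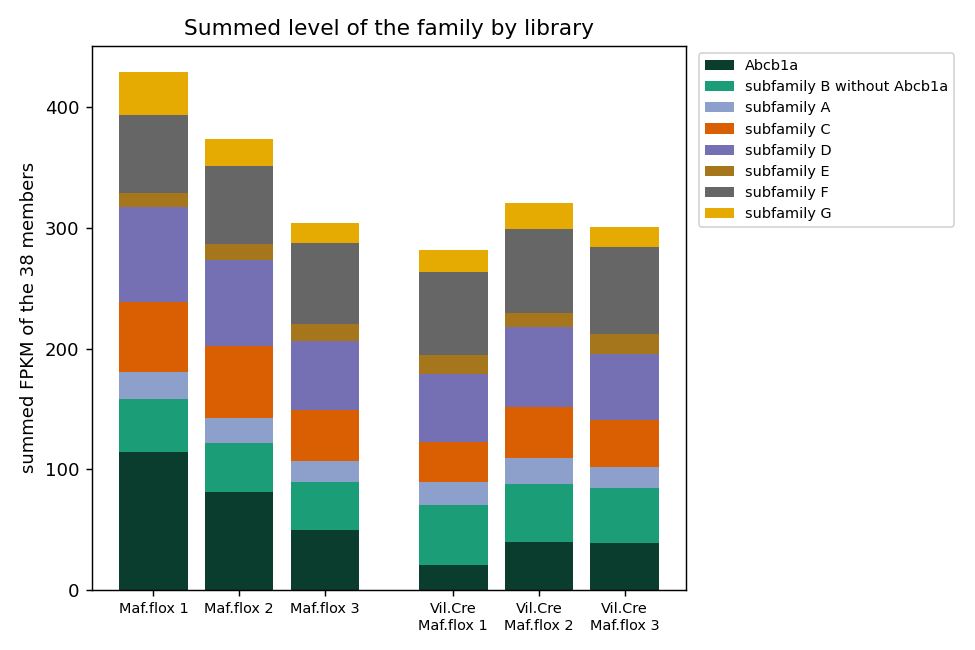
Summed FPKM of the 38 members in each library (y axis, from 0), with Abcb1a and each subfamily as a block. The Abcb1a block is 114 FPKM in Maf.flox replicate 1 and 20.8 FPKM in Vil.Cre Maf.flox replicate 1, and the sum of the other members ranges from 254 to 315 FPKM.

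Subfamily A holds large lipid transporters. Its 6 tested members had a median log2 fold change of -0.11, 4 lying below 0. Abca3, which loads phospholipid into surfactant bodies in the lung, was at 87.7, 84.5 and 70.5 CPM in Maf.flox and 72.8, 81.6 and 68.4 CPM in Vil.Cre Maf.flox, overlapping ranges with a log2 fold change of -0.12 (95% interval -0.39 to 0.14). Abca7, a phospholipid transporter also linked to phagocytosis, measured 67.8, 63.3 and 49.6 and 60.3, 72.5 and 49.9 CPM, with a log2 fold change of 0.01 (95% interval -0.36 to 0.38), and its sign turned under 3 alternatives. Abca8b was low, at 2.35, 3.44 and 3.13 CPM against 1.52, 2.29 and 2.35 CPM. Its 3 Vil.Cre Maf.flox libraries all lay lower, Vil.Cre Maf.flox replicate 3 by very little, and the difference of -0.53 (SE 0.277) had an adjusted p of 0.390.

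Abca12 (ENSMUSG00000050296, GRCm38 chromosome 1, 71242276 to 71414910, minus strand) moves lipids into lamellar granules of the epidermis. It had 6, 7 and 7 reads in the Maf.flox libraries and 15, 65 and 44 reads in the Vil.Cre Maf.flox libraries, or 0.252, 0.364 and 0.332 CPM against 0.761, 3.82 and 1.88 CPM. All 3 Vil.Cre Maf.flox values were above all Maf.flox values, and they differed from each other by several fold. The means were 0.316 ± 0.0577 CPM (SD, n = 3) and 2.15 ± 1.55 CPM, the log2 fold change 2.74 (SE 0.606, 95% interval 1.36 to 4.12) and the adjusted p 0.0866. Without Vil.Cre Maf.flox replicate 2 the log2 fold change was 2.08, and over all single libraries left out it ran from 2.08 to 3.15. Its length-scaled level stayed low, at 0.146 ± 0.104 FPKM in Vil.Cre Maf.flox. Abca5, a lysosomal member, had the widest interval of the subfamily beside it, -1.89 to 0.64. Abca13, Abca14 and Abca8a did not pass the filter, and none of them had a mean above 0.272 CPM in either group.

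Subfamily B joins P-glycoprotein with mitochondrial and lysosomal members. Of its 6 tested members 3 lay below 0 and 3 above, and the median of -0.05 turned sign between alternatives. Abcb1a (ENSMUSG00000040584, GRCm38 chromosome 5, 8660077 to 8748575, plus strand) encodes the gut's P-glycoprotein, which expels a wide range of drugs. Its level was 622, 449.8 and 274 CPM in Maf.flox and 114, 218 and 212 CPM in Vil.Cre Maf.flox. Every Vil.Cre Maf.flox library was below every Maf.flox library, Maf.flox replicate 3 lying nearest to them. Means were 449 ± 174 and 181 ± 58.5 CPM (SD, n = 3), so that Vil.Cre Maf.flox held 40.4% of the Maf.flox mean. The log2 fold change was -1.31 (SE 0.354, 95% interval -2.15 to -0.47) with an unadjusted p of 0.00776 and an adjusted p of 0.150. Its near copy Abcb1b, the other mouse P-glycoprotein gene, had 0, 0 and 0 reads in Maf.flox and 0, 3 and 0 in Vil.Cre Maf.flox. How reads that fit both copies were counted is not given in the sources used here, so the split between them is uncertain. Abcb1a also overlaps Gm42684 on the same strand over 3615 bases and Gm42686 on the other strand over 4108 bases. The part of these overlaps was not tested.

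Abcb8 and Abcb10 sit in the mitochondrial inner membrane. Abcb8 measured 69.8, 70.1 and 78.8 CPM in Maf.flox against 95.5, 82.4 and 87.8 CPM in Vil.Cre Maf.flox, which placed all 3 Vil.Cre Maf.flox libraries higher. The log2 fold change was 0.28 (SE 0.102, 95% interval 0.05 to 0.51) and the adjusted p 0.222. Abcb10 overlapped, at 0.11 (95% interval -0.23 to 0.46). Among 17 genes of mitochondrial haem and iron-sulfur synthesis, all tested, 1 fell, none rose, and 14 lay above 0, with a median of 0.07. The gene that fell was Slc25a37, the mitochondrial iron importer mitoferrin-1, with a log2 fold change of -1.05 and an adjusted p of 0.0472. Glrx5, which serves iron-sulfur cluster transfer, was at 0.40 (adjusted p 0.146).

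Abcb6, a porphyrin transporter, was at 1.47, 1.15 and 0.759 CPM against 0.507, 0.352 and 0.813 CPM, overlapping through Maf.flox replicate 3 and Vil.Cre Maf.flox replicate 3. Its log2 fold change of -0.98 (SE 0.421, adjusted p 0.294) is uncertain, as it rests on 35, 22 and 16 reads against 10, 6 and 19. The gene also overlaps Gm29253 on the same strand over 8662 bases, and the part of this overlap was not tested. Abcb9, a lysosomal peptide transporter, stood at -0.21 (95% interval -0.66 to 0.23). The liver's canalicular pumps were barely read: Abcb4, which flips phospholipid, had 4, 4 and 1 reads against 2, 1 and 1. Abcb11, the bile salt export pump, had 1, 0 and 0 against 1, 0 and 0.

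Peptide transporters for antigen loading belong to the same subfamily but carry other symbols, so they are no members here. Tap1 rose, from 91.6, 76.9 and 115 CPM to 202, 163 and 181 CPM, with a log2 fold change of 0.95 (SE 0.156) and an adjusted p of 0.0457. Tap2 was at 0.42 with an adjusted p of 0.0859. Of 13 partner genes of peptide loading, 13 lay above 0 (median 0.41), 10 had an unadjusted p under 0.05 and 0 were called. The immunoproteasome subunit gene Psmb8 was at 1.11 (adjusted p 0.0736) and Psmb9 at 0.94 (adjusted p 0.0736). Nlrc5, the activator of class I antigen presentation genes, was at 1.87 (adjusted p 0.0935).

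Subfamily C, the multidrug resistance-associated proteins and sulfonylurea receptors, had 8 tested members with a median of -0.27. At an unadjusted p under 0.05, 3 were lower and 1 higher. Abcc2 (ENSMUSG00000025194, GRCm38 chromosome 19, 43782192 to 43840740, plus strand), the apical pump for glucuronide and glutathione conjugates, measured 188, 254 and 104 CPM in Maf.flox and 34.9, 57.6 and 59.7 CPM in Vil.Cre Maf.flox. The highest Vil.Cre Maf.flox library was still below the lowest Maf.flox library, replicate 3. Mean levels were 182 ± 75.2 and 50.8 ± 13.7 CPM (SD, n = 3), or 27.8% of Maf.flox. The log2 fold change of -1.84 (SE 0.357, 95% interval -2.70 to -0.99) had an unadjusted p of 0.00147, the smallest in the family, and an adjusted p of 0.0851. Over all alternatives the log2 fold change ran from -2.12 to -1.52 and the adjusted p from 1.27e-07 to 0.264.

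Abcc6 (GRCm38 chromosome 7, 45967555 to 46030302, minus strand), through which cells release ATP that yields the calcification inhibitor pyrophosphate, was at 20.6, 23.4 and 22.1 CPM against 8.88, 16.7 and 13.4 CPM. The Maf.flox libraries lay close together and all above Vil.Cre Maf.flox, at a log2 fold change of -0.76 (SE 0.209, adjusted p 0.133). Abcc5 (chromosome 16, 20331303 to 20426394, minus strand), an exporter of organic anions and cyclic nucleotides, was at 15.5, 10.8 and 6.69 against 5.12, 6.75 and 6.25 CPM. Maf.flox replicate 3 lay among the Vil.Cre Maf.flox values, and the log2 fold change was -0.87 (SE 0.291, adjusted p 0.197).

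Abcc1 (chromosome 16, 14361558 to 14475737, plus strand), a glutathione-conjugate pump of the basolateral side, lay in the other direction. It measured 13.2, 12.7 and 15.5 CPM in Maf.flox and 22.0, 17.1 and 17.2 CPM in Vil.Cre Maf.flox, with no overlap and a log2 fold change of 0.44 (SE 0.151, adjusted p 0.201). Abcc3, the basolateral pump, overlapped at 134, 102 and 104 against 116, 141 and 122 CPM, with a log2 fold change of 0.16 (95% interval -0.15 to 0.47). Abcc4 was at 0.19 (95% interval -0.40 to 0.78) and Abcc10 at -0.09 (95% interval -0.36 to 0.18). Among 18 genes of glutathione synthesis and conjugation, all tested, none was called, 7 had an unadjusted p under 0.05 and 11 lay below 0 (median -0.05). Glutathione reductase, Gsr, was at 0.69 (adjusted p 0.0697) and the transferase Gstt1 at -0.80 (adjusted p 0.105). Gclm, a subunit of the enzyme that starts glutathione synthesis, was at -0.68 (adjusted p 0.148).

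The sulfonylurea receptors, which regulate ATP-sensitive potassium channels, were low, and Abcc9 was near the limit of detection. Abcc8 was at 2.14, 3.33 and 2.09 CPM against 2.64, 1.47 and 1.41 CPM, overlapping, with a log2 fold change of -0.45 (adjusted p 0.565). Abcc9 had 5, 9 and 2 reads in Maf.flox and 0, 0 and 1 in Vil.Cre Maf.flox, under the filter. Abcc12, a subfamily C member that is not a sulfonylurea receptor, had 4, 0 and 4 against 2, 4 and 0, also under the filter.

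**Figure D5:**
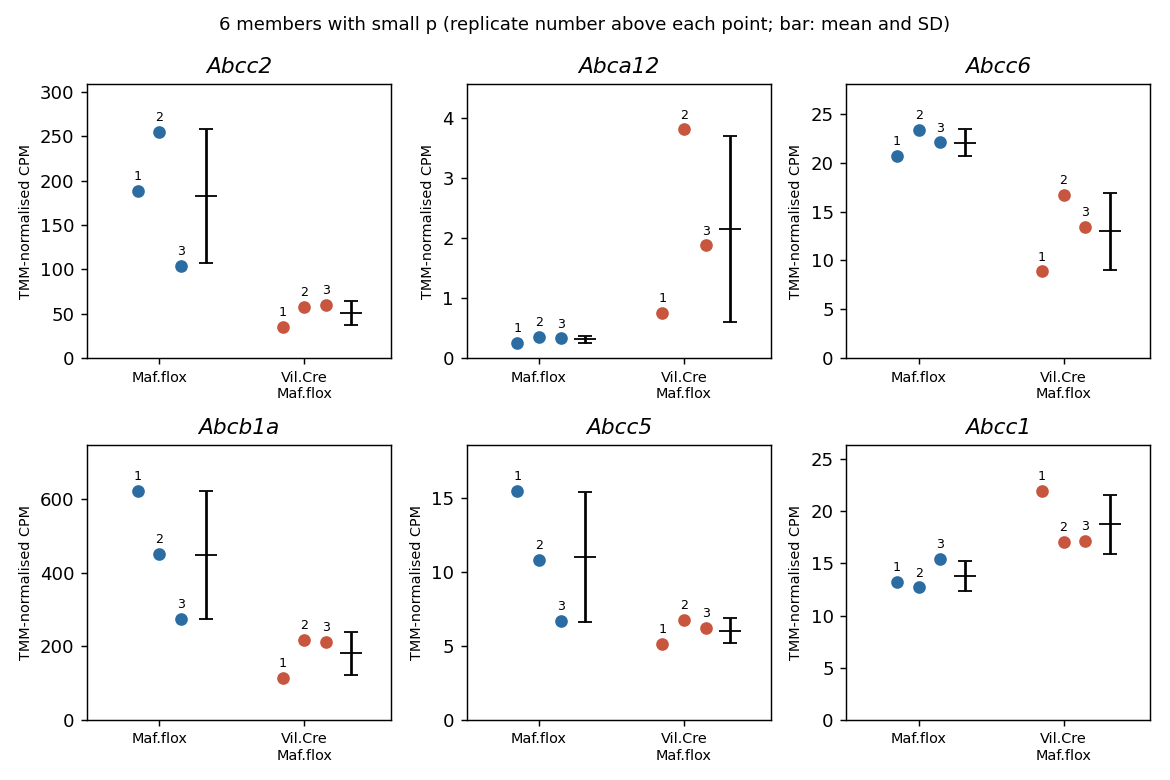
TMM-normalised CPM (y axes, from 0) of 6 members with small p in each library, with the replicate number above each point and the mean and SD as a bar. Abcc2, Abcc6 and Abcb1a are lower in all 3 Vil.Cre Maf.flox libraries, Abca12 and Abcc1 are higher in all 3, and Abcc5 overlaps through Maf.flox replicate 3.

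Subfamily D carries acyl-CoA esters into peroxisomes and cobalamin out of lysosomes. Abcd3, which takes branched-chain acyl-CoA and bile acid precursors, overlapped at 373, 320.2 and 253 CPM in Maf.flox against 253, 324 and 259 CPM in Vil.Cre Maf.flox, at -0.18 (95% interval -0.55 to 0.19). Abcd4, the lysosomal cobalamin member, was at -0.02 (95% interval -0.29 to 0.25). Of 16 genes of peroxisomal fatty acid oxidation and import, all tested, none was called, 7 had an unadjusted p under 0.05 and 13 lay below 0, with a median of -0.33. The oxidase Acox2 was at -1.12 (adjusted p 0.0923) and the multifunctional enzyme Hsd17b4 at -0.56 (adjusted p 0.162). The thiolase Acaa1a was at -0.48 (adjusted p 0.132).

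Subfamilies E and F work in translation. Abce1, which splits ribosomes after termination, was at 67.4, 79.7 and 85.8 CPM against 92.5, 70.0 and 101 CPM, overlapping, with a log2 fold change of 0.18 (95% interval -0.17 to 0.53). Abcf1, a partner of initiation factor eIF2, was at 154, 145 and 151 against 158, 167 and 162 CPM. Its 3 Vil.Cre Maf.flox libraries were all higher by a small margin, at 0.12 (95% interval -0.09 to 0.32, adjusted p 0.571). Abcf2 overlapped, at 40.6, 46.0 and 49.4 against 51.7, 45.9 and 54.3 CPM and 0.16 (adjusted p 0.524), and Abcf3 was at -0.09 (adjusted p 0.672). Of 12 genes of ribosome recycling and rescue, 10 were tested, 0 were called, 2 had an unadjusted p under 0.05 and 8 lay above 0 (median 0.15). The termination factors Etf1 and Gspt1 were at 0.25 (adjusted p 0.244) and 0.24 (adjusted p 0.282), and the eIF2 subunit gene Eif2s1 at 0.23 (adjusted p 0.312).

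In subfamily G, Abcg2 (chromosome 6, 58584523 to 58695676, plus strand), the apical pump for urate, sulfate conjugates and drugs, was at 284, 175 and 131 CPM in Maf.flox and 142, 166 and 127 CPM in Vil.Cre Maf.flox. Only Maf.flox replicates 1 and 2 lay above the Vil.Cre Maf.flox range, and the log2 fold change of -0.44 (SE 0.270, 95% interval -1.07 to 0.19) had an adjusted p of 0.473. It ran from -0.66 to -0.07 when single libraries were left out. Abcg1, a sterol exporter, was at 2.27, 1.77 and 1.57 against 1.37, 2.82 and 0.813 CPM, with a log2 fold change of -0.19 (95% interval -1.19 to 0.80), and its sign turned without Vil.Cre Maf.flox replicate 3. Abcg4 did not pass the filter.

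The 3 apical pumps Abcb1a, Abcc2 and Abcg2, a set put together after the values were seen, were all below 0 and spread widely within Maf.flox. The highest Maf.flox library exceeded the lowest by 2.27 times for Abcb1a, 2.44 times for Abcc2 and 2.18 times for Abcg2, and replicate 3 was the lowest each time. Maf.flox replicate 3 was the lowest of its group for 14 of the 29 members, against 38.4% of all genes. The enterocyte marker sum, given above, was also lowest of the Maf.flox libraries in replicate 3. So were the goblet (15306 CPM), tuft (24.3 CPM) and enteroendocrine (341 CPM) marker sums. Its Paneth (37173 CPM), stem cell (3408 CPM) and leukocyte (36.7 CPM) marker sums were the highest of that group. The part of these differences between libraries in the values of the 3 pumps was not tested.

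Xenobiotic and sterol nuclear receptors and their partners, which control many of these genes in liver and gut, had 20 of 20 genes tested. None was called, 3 had an unadjusted p under 0.05 and 16 lay below 0, with a median of -0.13. Hnf4g, an enterocyte nuclear receptor, was at -0.44 (adjusted p 0.142), Ppara, the fatty acid receptor, at -0.42 (adjusted p 0.191) and Ppard at 0.32 (adjusted p 0.167). Cftr, the chloride channel of subfamily C under another symbol, was at -0.30 (adjusted p 0.390). Of 15 genes listed as regulators of Cftr or as partners of anion transport, 13 were tested, 1 rose and 1 fell, and 11 lay below 0 (median -0.25). The one that rose was Slc9a3, the brush border sodium-proton exchanger, at 1.06 (adjusted p 0.0143), and the one that fell was Prkg2, a cGMP-dependent kinase, at -0.67 (adjusted p 0.0457). The brush border scaffold gene Pdzk1 was at -2.12 (adjusted p 0.0736).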

How the data were processed

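RNA from sorted small intestinal epithelial cells was sequenced in 3 Maf.flox and 3 Vil.Cre Maf.flox libraries. The authors deposited read counts per gene as whole numbers. FPKM values per library and a gene length were deposited beside them. The submitters' processing notes name featureCounts 1.5.0-p3 and HISAT2 2.0.5, along with DESeq2 and the builds GRCm38 and mm10. The strand setting is not given in the sources used here, so reads of overlapping genes on opposite strands may be mixed; 13 members overlap such a gene. Library totals ran from 17464355 to 24802525 counts, so before TMM scaling 1 CPM stood for 17.5 to 24.8 reads.

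Genes were compared on these counts in R 4.3.3 by edgeR 4.0.16 (filterByExpr with a minimum count of 10, TMM scaling, quasi-likelihood test, Benjamini-Hochberg adjustment over 13740 genes, threshold 0.05), and the test was checked on simulated data. CPM in the text is TMM-normalised. FPKM was used only to compare levels between genes. Alternatives were other scalings and filters, DESeq2 1.42.0, limma-voom (limma 3.58.1), other thresholds, a sex term, a replicate block and leaving out each library. The sex term came from Xist and Y-linked counts, which gave 1 male and 2 female Maf.flox and 2 male and 1 female Vil.Cre Maf.flox libraries.

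Members described by library were the 2 with the highest mean FPKM in each subfamily, and the 16 with the smallest p over the family; the others are given by fold change or reads only. From each list of related genes, the 3 with the smallest p and any called gene were named. The members and gene lists were chosen with earlier results of these data known. Gene positions come from the deposited table, and all 38 members were found in GENCODE M21, 37 with the same start and end. All 38 members entered the counts; the values of 2 members and of 1 related gene are not reported here. No 2 libraries of a group agreed within sampling noise.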

Additional observations from a re-analysis of the deposited data

How the results depend on the processing

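With 75 genes and 0 members called at an adjusted p under 0.05, other settings gave 365 genes and 1 member (no filter on low counts), 760 and 4 (DESeq2), 34 and 0 (limma-voom), 38 and 0 (sex term), 372 and 2 (adjusted p under 0.1) and 2 and 0 (adjusted p under 0.01). In edgeR, scaling by relative log expression, upper-quartile scaling and a stricter filter gave 58 to 103 genes and 0 members. The replicate block gave 440 genes and 3 members, but same-numbered libraries correlated at 0.0917, -0.0256 and 0.269, which gave no ground to pair them. Leaving out single libraries gave 8 to 701 genes and 0 to 4 members, the highest of each without Maf.flox replicate 3. Of all genes called, 26 were higher and 49 lower, against 124 and 577 without Maf.flox replicate 3, 8 and 4 without Vil.Cre Maf.flox replicate 1, 16 and 7 without replicate 2 and 6 and 2 without replicate 3 of that group. The members' median stayed between -0.13 and -0.05. Abca7 turned to -0.10 with a sex term, -0.11 without Maf.flox replicate 3 and -0.11 without Vil.Cre Maf.flox replicate 2, and Abcg1 to 0.15 without Vil.Cre Maf.flox replicate 3, within leave-one-out ranges of -0.11 to 0.14 and -0.77 to 0.15. The cause was not tested. Abcc9 and Abcb4, with under 10 reads in every library, did not pass the filter and could not be compared at this depth.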

Other observations

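Bile acid transport in the ileum runs through genes outside the family. Of 6 such genes, all tested, none was called by edgeR, none had an unadjusted p under 0.05, and 4 lay below 0 (median -0.10). Slc10a2, the apical bile acid importer, was at -0.47 (adjusted p 0.687), Fabp6, the cytosolic carrier, at 0.25 (adjusted p 0.751) and Fgf15, the hormone that signals to the liver, at -1.68 (adjusted p 0.365).

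The pore subunits that pair with the sulfonylurea receptors Abcc8 and Abcc9 were both tested. Kcnj8 was at 1.39, 1.67 and 1.04 CPM in Maf.flox and 0.304, 0.470 and 0.171 CPM in Vil.Cre Maf.flox. Its log2 fold change was -2.14 (SE 0.431), with an adjusted p of 0.0736 by edgeR. The filter itself bears on Kcnj8, whose counts reached the minimum in all Maf.flox libraries but in no Vil.Cre Maf.flox library. It was tested only through the group where it was higher, so its fold change and adjusted p are a description. Kcnj11 was at 0.04 (adjusted p 0.979). Abcc9, with 5, 9 and 2 reads in Maf.flox and 0, 0 and 1 in Vil.Cre Maf.flox, was too thinly read to be tested.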
